A study of Mus musculus with 16 samples.

Results

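The genes described here are 9 imprinted genes with roles in growth around birth: H19, Igf2, Igf2r, Dlk1, Peg3, Plagl1, Cdkn1c, Grb10 and Mest. They were taken by symbol from the 24421 genes counted in each library, and all 9 were present. A library is the RNA of epithelium that EDTA had loosened from a segment of jejunum or ileum of a C57BL6/J mouse, killed at postnatal day 6 (P6, before weaning) or at day 36 (P36, after it). There were 4 mice per age, 2 female and 2 male, each giving both regions, so that 16 libraries form 4 groups of 4: P6 jejunum, P6 ileum, P36 jejunum and P36 ileum. All mice are labelled wild type (WT), and no treatment is named for any group. Each age group came from different mice, so that age cannot be told apart from any other difference between the young and the older animals.

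In mammals an imprinted gene is transcribed mainly from the chromosome inherited from one parent, and many imprinted genes act on fetal and early postnatal growth. Igf2 encodes a growth factor of the insulin family, made from the paternal copy. Its maternally expressed neighbour H19 is a long non-coding RNA, and Igf2r is the receptor that takes Igf2 protein to the lysosome for breakdown. Dlk1, Peg3, Plagl1 and Mest are paternally expressed: a membrane protein related to the Notch ligands, a pair of zinc finger proteins, and a hydrolase-like protein. Cdkn1c, an inhibitor of cyclin-dependent kinases, and Grb10, an adaptor that restrains insulin and IGF receptor signalling, are expressed from the maternal copy in most tissues. Both parents of an inbred mouse carry the same sequence, so counts give the sum of both copies and say nothing about the parent of origin.

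Of the 9 genes, 4 lie on chromosome 7 of the mm10 genome. H19 (142575530 to 142578146, minus strand) and Igf2 (142650768 to 142661035, minus strand) are 72.6 kb apart, Cdkn1c (143458339 to 143461050, minus strand) is 797 kb beyond Igf2, and Peg3 (6705960 to 6730419, minus strand) lies near the other end. The other genes are on chromosomes 6 (Mest), 10 (Plagl1), 11 (Grb10), 12 (Dlk1) and 17 (Igf2r). One exon of H19 contains the hairpin of the microRNA miR-675, on the same strand. RefSeq gives its mature sequences (GRCm38.p6), shown because they are the part of H19 with a small RNA product of its own, with the seed (bases 2 to 8) in capitals.
mmu-miR-675-5p: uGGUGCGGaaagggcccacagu
mmu-miR-675-3p: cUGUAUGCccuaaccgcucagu
The hairpin had 0 counts as a separate gene in each of the 16 libraries. All 84 of its bases lie within the H19 exon, so that reads there cannot be assigned to it with certainty. The libraries were made from mRNA, and mature microRNA was not measured.

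RefSeq promoter windows, from 250 bases before to 50 bases after a transcription start, were found for 7 of the 9 genes, 13 windows in all (not H19 and Cdkn1c). Plagl1 protein is known to bind DNA at the letters GGGGCCCC, which read the same on both strands and were present in 1.08% of the 32851 windows of all genes. Of the 13 windows only that of Peg3 (chr7:6730370-6730669, minus strand) held them, in capitals here.
Peg3 promoter: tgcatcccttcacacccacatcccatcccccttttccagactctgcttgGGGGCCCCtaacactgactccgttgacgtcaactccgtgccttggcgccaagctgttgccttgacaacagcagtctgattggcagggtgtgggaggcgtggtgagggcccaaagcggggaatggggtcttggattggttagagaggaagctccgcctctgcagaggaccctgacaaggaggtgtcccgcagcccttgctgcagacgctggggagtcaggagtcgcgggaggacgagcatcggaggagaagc
The promoter of Plagl1 itself (chr10:13090582-13090881, plus strand) had 26 CpG dinucleotides, against a median of 7 over all windows, and is shown for its 2 GC boxes (GGGCGG on either strand, here read as CCGCCC, in capitals).
Plagl1 promoter: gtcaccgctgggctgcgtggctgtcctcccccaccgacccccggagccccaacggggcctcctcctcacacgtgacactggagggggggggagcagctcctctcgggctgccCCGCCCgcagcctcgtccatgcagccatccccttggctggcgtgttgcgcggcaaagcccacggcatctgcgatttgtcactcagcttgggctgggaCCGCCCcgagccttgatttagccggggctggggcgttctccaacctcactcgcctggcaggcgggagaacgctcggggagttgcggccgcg
GC boxes were in 35.7% of all windows, and in a window of Mest, Igf2, Igf2r and Grb10 as well. These matches describe sequence only, and no binding or methylation was measured here.

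Total counts per library ranged from 12159237 to 25947276. Levels are given as CPM, a gene's counts scaled to a library total common to all libraries, corrected by TMM factors. The epithelial list (7 genes) summed to between 4020 and 6700 CPM at P6 and between 11281 and 17062 CPM at P36, without overlap. Epcam alone lay between 1137 and 2230 CPM over all libraries, with overlap between the ages. The P6 libraries that stood apart were both from the ileum. In that of mouse L42150-1 (replicate 2), the smooth muscle list (6 genes, such as Myh11 and Acta2) summed to 225 CPM, against 0.958 to 3.53 CPM in the other 7 P6 libraries and 0.265 to 1.53 CPM at P36. Its endothelial list (6 genes) summed to 40.5 CPM, against at most 7.90 CPM in the other P6 libraries, and its fibroblast list (7 genes) to 276 CPM, against at most 164 CPM. Sox10, which marks enteric glia, was detected in this library and at 0 in all others. Of the red cell list (5 genes), Hba-a1, Hba-a2, Hbb-bs and Hbb-bt were at 0 in all libraries. Alas2 was detected in all but the P36 ileum of mouse AA3023, at 1.32 CPM or less. Of the P6 ileal libraries, that of mouse L42150-2 (replicate 4) differed most in its counts. Its chi-square per gene was 226 to 272 against the other 3, which differed among themselves by 20.4 to 41.0. Results of the members that rest on the ileal library of L42150-1 are given with and without it. H19 is also given without both libraries of mouse L42150-2. The P36 ileum was uneven as well: replicates 1 and 3 differed by a chi-square per gene of 265, and the other pairs by 24.5 to 88.7.

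At P6 the 9 genes together took 0.162% ± 0.0157 (SD, n = 4) of all counts in the jejunum and 0.289% ± 0.0167 (SD, n = 4) in the ileum. At P36 they took 0.0139% ± 0.000454 and 0.0148% ± 0.00218 (SD, n = 4 each). H19, Igf2 and Igf2r made up most of this at P6, 78.5% to 86.8% of the members' counts in any library. The shares of all counts use raw library totals, without the TMM factors that enter CPM. These factors ran from 0.877 to 0.935 in the P6 jejunum and from 1.09 to 1.11 in the P6 ileum. The regions therefore differ more in these shares than in CPM. Per length, on the scale of CPM per kb of exon, the P6 jejunum ranked H19 (128), Igf2 (112), Cdkn1c (102) and Igf2r (74.4) first, and neighbours in this order overlapped between libraries. Plagl1 (24.6), Grb10 (5.22), Peg3 (2.00), Mest (0.120) and Dlk1 (0.0228) followed, each below the one before without overlap, except that Mest and Dlk1 overlapped. In the P6 ileum the order began with H19 (263) and Igf2 (172), which overlapped, and then Igf2r (103) and Cdkn1c (94.7), which also overlapped. At P36 Igf2r stood first in both regions (13.7 CPM per kb in the jejunum and 14.9 in the ileum), above every other member in each library.

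**Figure D1:**
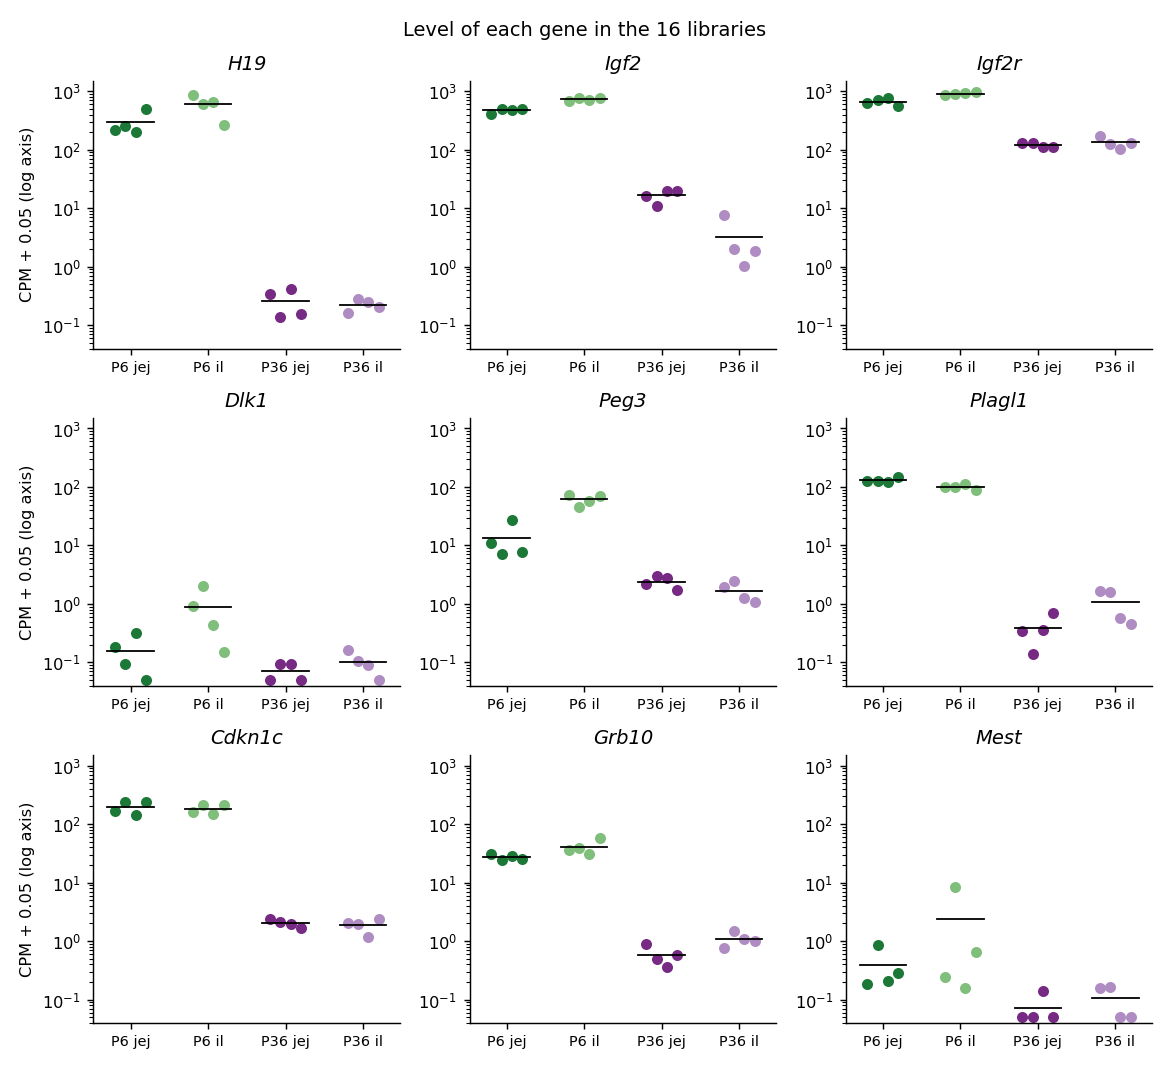
CPM + 0.05 on a log axis for each of the 9 genes, 1 point per library (replicates 1 to 4 from left to right in each group) and a line at the group mean. All P6 points of H19, Igf2, Igf2r, Peg3, Plagl1, Cdkn1c and Grb10 lie above all P36 points of the same region, whereas Dlk1 overlaps in both regions and Mest in the ileum. Of all genes tested, 63.8% (jejunum) and 44.4% (ileum) had no overlap between P6 and P36.

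The first comparison was between ages within a region. All 7 members that passed the filter on low counts fell from P6 to P36 in both regions, each by more than 2 on the log2 scale. Over all 13429 genes tested, 26.9% were called higher at P6 in the jejunum and 30.1% in the ileum (edgeR quasi-likelihood test, Benjamini-Hochberg adjusted p below 0.05), and 8.59% and 10% with the log2 minimum of 2 as well. Another 24.7% and 25.5% were called higher at P36. H19 passed the filter through its P6 libraries alone, with 0 of 8 P36 libraries at the filter's 0.503 CPM, and so had to differ between the ages. Of the P36 jejunal libraries, 1 reached this level for Plagl1 and 2 for Grb10, whereas Igf2, Igf2r, Peg3 and Cdkn1c reached it in all 16 libraries. The counts and medians over the 7 genes are therefore descriptions only. The median log2 fold change was -5.69 in the jejunum and -6.61 in the ileum over these 7 genes, and -0.01 and -0.03 over all genes tested. In bulk RNA, fewer cells of a type and less RNA per cell cannot be told apart.

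H19 had the largest change of the 7. In replicates 1 to 4 its level was 217, 253, 203 and 501 CPM in the P6 jejunum and 858, 618, 663 and 270 CPM in the P6 ileum. At P36 only 5, 2, 8 and 2 reads were counted in the jejunum and 2, 4, 5 and 2 in the ileum, from libraries of at least 12159237 counts. The P36 means of 0.212 ± 0.135 and 0.175 ± 0.0515 CPM (SD, n = 4 each) were 0.0722% and 0.0291% of the P6 means. The fitted log2 fold change was -10.40 (SE 0.54, adjusted p = 3.06e-10) in the jejunum and -11.68 (SE 0.57, adjusted p = 1.81e-10) in the ileum. With 17 and 13 reads behind the P36 groups, the size of these fold changes is known less well than their direction.

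Igf2, the growth factor, kept a measurable level at P36, above all in the jejunum. Its P6 values were 414, 492, 478 and 506 CPM in the jejunum and 677, 754, 721 and 764 CPM in the ileum. At P36 they were 16.4, 10.9, 19.5 and 19.8 CPM in the jejunum and 7.74, 1.98, 0.980 and 1.82 CPM in the ileum. Each P36 jejunal library was thus above each P36 ileal library, the reverse of the order at P6. The log2 fold change with age was -4.82 for the jejunum (SE 0.46, adjusted p = 3.23e-07) and -7.86 for the ileum (SE 0.54, adjusted p = 7.71e-09). Igf2os, an antisense RNA that shares 98 exon bases with Igf2 on the opposite strand, averaged 57.7 ± 8.14 and 102 ± 10.6 CPM at P6 and 1.89 ± 0.642 and 0.190 ± 0.353 CPM at P36 (jejunum and ileum, SD, n = 4 each). The counting used strand, and log2 fold changes of Igf2os with age were -4.95 (SE 0.45, adjusted p = 1.50e-07) and -8.99 (SE 0.58, adjusted p = 3.74e-09).

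Igf2r, the receptor for Igf2 breakdown, kept the highest level at P36. It stood at 629, 703, 765 and 559 CPM in the P6 jejunum and at 851, 913, 937 and 962 CPM in the P6 ileum. At P36 it was at 132, 131, 114 and 112 CPM in the jejunum and 173, 125, 103 and 132 CPM in the ileum, 18.4% and 14.6% of the P6 means. The groups did not overlap between ages, and the log2 fold change was -2.44 (SE 0.16, adjusted p = 5.64e-09) and -2.78 (SE 0.17, adjusted p = 1.72e-09). Airn, the antisense RNA known to repress the paternal Igf2r copy outside the nervous system, fell too, with log2 fold changes of -2.87 (SE 0.33) and -2.82 (SE 0.33), from 7.66 ± 0.884 and 9.76 ± 3.70 CPM at P6 to 1.05 ± 0.306 and 1.38 ± 0.550 CPM at P36 (SD, n = 4 each).

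Plagl1, a zinc finger transcription factor that links several imprinted genes in a known network, was at 125, 125, 122 and 146 CPM in the P6 jejunum and at 101, 98.6, 113 and 88.7 CPM in the P6 ileum. At P36 it was at 0.294, 0.0882, 0.314 and 0.639 CPM in the jejunum (26 reads in all) while the ileal libraries had 29, 27, 13 and 5 reads, a mean of 1.02 ± 0.640 CPM (SD, n = 4). It was almost lost in both regions, with log2 fold changes of -8.61 (SE 0.43, adjusted p = 2.27e-10) and -6.61 (SE 0.39, adjusted p = 1.27e-09). Hymai, a non-coding RNA that shares 180 exon bases with Plagl1 on the same strand, had 45 and 36 reads in the P6 groups and 0 and 1 at P36. Reads in the shared stretch cannot be assigned to either gene with certainty. No P36 library reached the filter's level for Hymai, so that it had to differ between the ages.

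Cdkn1c, the cell cycle inhibitor, was at 169, 240, 145 and 240 CPM in the P6 jejunum and at 164, 213, 150 and 210 CPM in the P6 ileum. In both regions the mice whose numbers begin with L42150 (replicates 2 and 4) were above those that begin with L41800 (replicates 1 and 3). What separates these animals other than the number is not given in the labels. At P36 the jejunum averaged 1.98 ± 0.273 CPM and the ileum 1.86 ± 0.516 CPM (SD, n = 4 each). The log2 fold change was -6.65 in either region (SE 0.26 and 0.27, adjusted p = 2.61e-11 and 3.20e-11), and the P36 means were 0.996% and 1.01% of the P6 means. Of the other CDK inhibitors, 5 of 6 listed were tested, and 3 rose and 1 fell in the jejunum and 4 rose in the ileum, against 24.7% and 25.5% of all genes tested that rose. Cdkn2c rose by 2.47 (SE 0.26) and 3.00 (SE 0.27), Cdkn2b by 1.40 (SE 0.16) and 2.00 (SE 0.16), and Cdkn1a by 1.41 (SE 0.25) and 1.20 (SE 0.25) on the log2 scale in jejunum and ileum. Cdkn2d fell in the jejunum (-0.67, SE 0.25) and Cdkn1b rose in the ileum (0.43, SE 0.14).

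Grb10, the adaptor protein, was at 30.1, 23.8, 28.6 and 25.1 CPM in the P6 jejunum and at 36.5, 38.3, 30.8 and 57.9 CPM in the P6 ileum. At P36 it lay between 0.314 and 0.824 CPM in the jejunum and between 0.719 and 1.42 CPM in the ileum. The log2 fold change was -5.69 (SE 0.30, adjusted p = 3.10e-10) and -5.30 (SE 0.28, adjusted p = 5.21e-10).

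Peg3, the other zinc finger protein, fell from unequal levels in the regions. In the P6 jejunum it was at 11.0, 7.05, 27.1 and 7.71 CPM, and in the P6 ileum at 73.9, 45.6, 58.1 and 69.3 CPM. At P36 all 8 libraries were low, between 1.65 and 2.91 CPM in the jejunum and between 1.03 and 2.38 CPM in the ileum. Its log2 fold change was -2.48 (SE 0.40, adjusted p = 7.69e-05) in the jejunum and -5.22 (SE 0.44, adjusted p = 8.58e-08) in the ileum. Peg3os, antisense to Peg3, had 1 read in all libraries together.

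**Figure D2:**
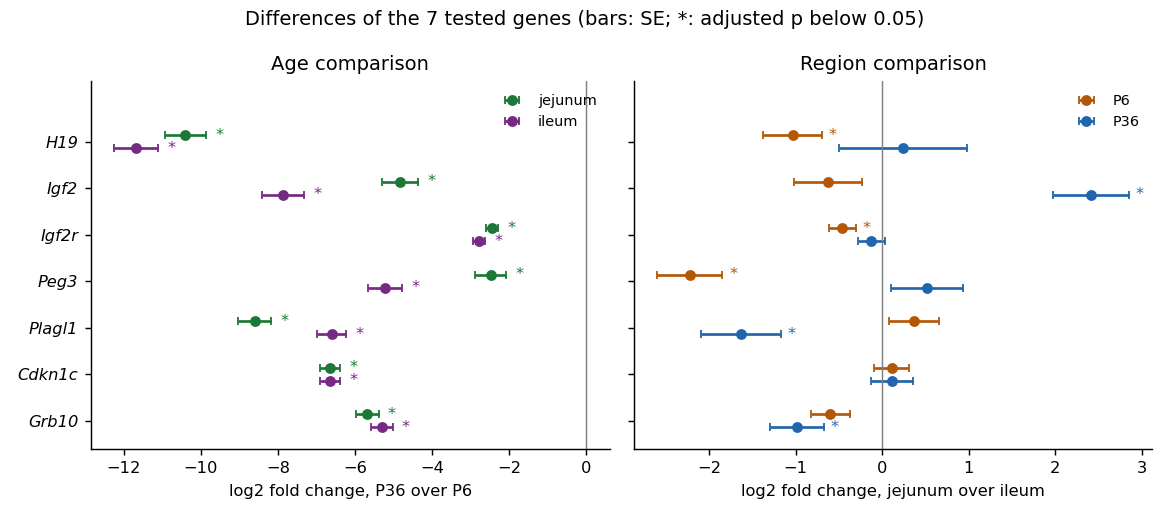
Fitted log2 fold changes of the 7 tested genes, with SE as bars and a star where the adjusted p was below 0.05; left, P36 over P6 in the jejunum and ileum, and right, jejunum over ileum at P6 and P36. All 14 age values are below 0, from -2.44 to -11.68, and the region values of Igf2, Peg3 and Plagl1 lie on opposite sides of 0 at P6 and P36.

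Dlk1 and Mest did not pass the filter, and were not in the main test. Mest, the hydrolase-like gene, was counted 3, 18, 3 and 5 times in the P6 jejunum and 4, 192, 2 and 12 times in the P6 ileum. The 192 reads (8.27 CPM) came from the ileal library of mouse L42150-1, the one with smooth muscle and endothelial genes, and the other 7 P6 libraries lay between 0.109 and 0.803 CPM. At P36 there were 2 reads in the jejunum and 4 in the ileum, summed over 4 libraries each. Without a filter the log2 fold change with age in the ileum was -5.19 (SE 1.36, adjusted p = 0.00518), and with that library left out it was -2.27 (SE 1.07, adjusted p = 0.105). In the jejunum it was -3.49 (SE 1.56, adjusted p = 0.0919) with all libraries and -3.53 (SE 1.10, adjusted p = 0.0173) without that one. The age difference of Mest in the ileum therefore rested on 1 library.

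Dlk1, the membrane protein, was counted 3, 1, 5 and 0 times in the P6 jejunum and 18, 45, 7 and 2 times in the P6 ileum. The highest value, 1.94 CPM, was again that of mouse L42150-1, and the second highest, 0.888 CPM, that of L41800-3, whose smooth muscle sum was low. At P36 it had 2 reads in the jejunum and 4 in the ileum in all. Without a filter the log2 fold change with age in the ileum was -3.77 (SE 1.01, adjusted p = 0.00602), and -2.94 (SE 1.02, adjusted p = 0.0292) without the ileal library of L42150-1. Between the regions at P6 it was -2.85 (SE 0.92, adjusted p = 0.0388) with that library and -2.004 (SE 0.92, adjusted p = 0.160) without it. In the jejunum the age difference was -1.91 (SE 1.20, adjusted p = 0.242).

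Igf1, which acts on the same receptor as Igf2, and Ndn, another imprinted gene, were also too low to be tested and were highest in the same library. Igf1 had 38 reads there and at most 8 in any other library, and Ndn had 51 reads there and at most 7. The 7 tested members did not share this pattern: in the P6 ileal library of L42150-1, H19, Igf2, Igf2r, Plagl1 and Grb10 lay within the range of the other P6 ileal libraries, Cdkn1c was the highest of the 4 (213 CPM against 150 to 210 CPM) and Peg3 the lowest. Without that library the age changes of all 7 in the ileum were still called.

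**Figure D3:**
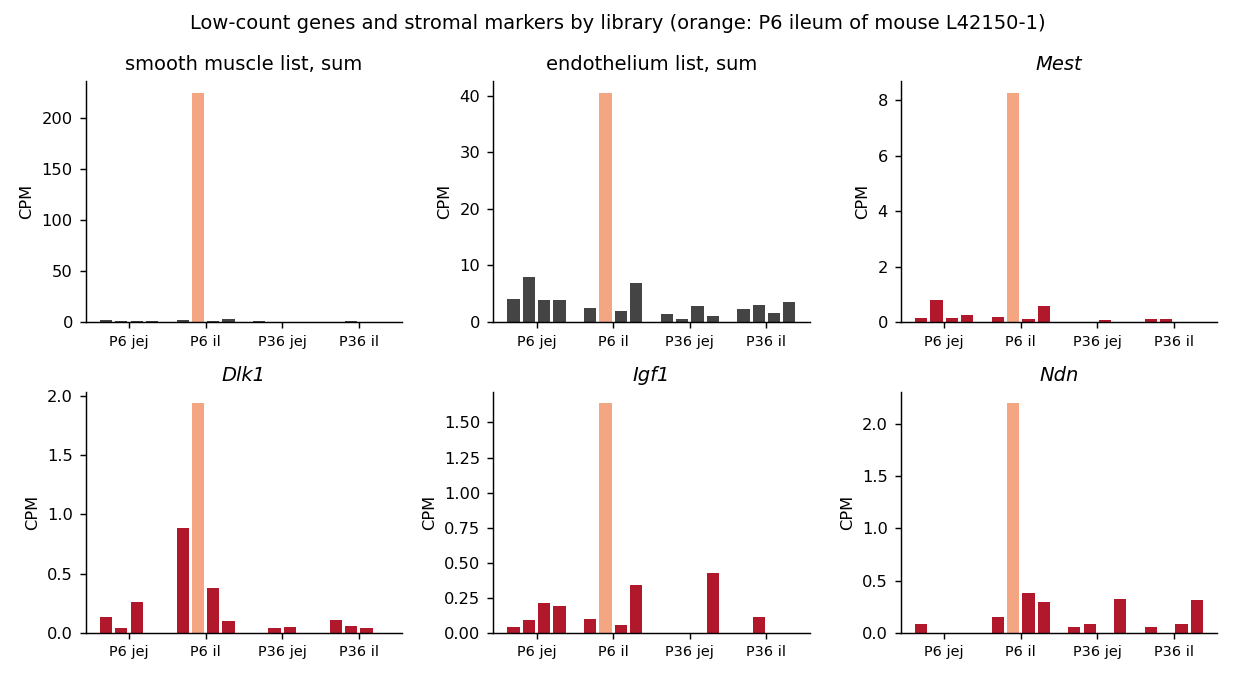
CPM per library (bars in replicate order within each group) of the summed smooth muscle and endothelial lists and of Mest, Dlk1, Igf1 and Ndn; the P6 ileal library of mouse L42150-1 is in orange. That bar is the highest in all 6 panels, at 225 and 40.5 CPM for the lists and 8.27 CPM for Mest.

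Lists of other cell types moved with age as well. The immune list (6 genes) summed to between 161 and 500 CPM at P6 and between 3.54 and 50.5 CPM at P36, nearly all of it at P6 from Csf1r (455 ± 34.4 and 244 ± 74.2 CPM, SD, n = 4 each). At P36 Csf1r was at 2.04 ± 1.14 and 1.075 ± 0.433 CPM (SD, n = 4 each), and the other genes of the list made up most of the sum. The fall of the immune sum was thus that of 1 gene and does not describe the rest of the list. The neural and glial list (6 genes) summed to between 91.9 and 218 CPM at P6 and between 3.71 and 10.1 CPM at P36, most of it from Ret. The fibroblast list summed to 123 to 164 CPM in the P6 jejunum and 179 to 234 CPM in the P36 jejunum, mostly from Fbln1. In the ileum it summed to 35.9 to 52.7 CPM at P6 without the library of L42150-1 and to 50.2 to 90.8 CPM at P36. The part of these cell types, or of the higher epithelial sum at P36, in the fall of the members was not tested.

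The second comparison was between the regions of the same mice at P6. Of the 7 tested members, 3 were higher in the ileum (Peg3, H19 and Igf2r) and none was called higher in the jejunum, while 25.9% of all genes tested differed in either direction, 14.8% being higher in the ileum and 11.1% in the jejunum. With the log2 minimum of 2 only Peg3 passed, against 6.5% of all genes. Peg3 had the largest difference, 4.68-fold in the fit (log2 jejunum over ileum -2.23, SE 0.38, adjusted p = 0.000424). It was higher in the ileum of each of the 4 mice, by 6.72, 6.47, 2.14 and 9.00 times. The call held in all 19 alternative analyses, including those without mouse L42150-1.

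H19 was higher in the ileum of 3 mice, by 3.96, 2.44 and 3.26 times, and lower in that of the fourth, L42150-2, at 0.538 times its jejunum. The fitted log2 difference was -1.04 (SE 0.34, adjusted p = 0.0328), and the call held in 9 of 19 alternatives. It was lost when any 1 P6 library of the other 3 mice was left out (adjusted p = 0.0546 without the ileum of L42150-1), and with the mouse as a block (-1.08, adjusted p = 0.0917). Without both libraries of L42150-2 it was -1.67 (SE 0.20, adjusted p = 3.32e-05). The P6 ileal library of that mouse was also lowest of the 4 in several genes of the P6 ileum, named here after their values were seen, some of them higher in the P6 ileum and some in the P6 jejunum. They were Rarres1 (48.4 CPM against 99.5 to 102 CPM in the others), Anxa8 (24.2 against 66.0 to 77.0 CPM) and Meg3 (26.4 against 71.4 to 85.7 CPM), but also Fcgrt, the neonatal Fc receptor, which was at 10199 CPM or more in every P6 jejunum (326 against 1033 to 1461 CPM), and Igfals (1.67 against 18.1 to 23.0 CPM). Igf2, Igf2r and Grb10 were instead highest of the 4 in it. Why this library differed was not tested.

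Igf2r was higher in the ileum of all 4 mice, by 1.22 to 1.72 times, with a log2 difference of -0.46 (SE 0.16, adjusted p = 0.0388). The call held in 10 of 19 alternatives and was lost without P6 ileum replicates 2 or 3 or P6 jejunum replicates 1, 2 or 4. Without the ileal library of L42150-1 (replicate 2) it was -0.47, with an adjusted p of 0.0604. Igf2 was likewise higher in every ileum, by 1.64, 1.53, 1.51 and 1.51 times, without overlap between the regions. The shared fit did not call this difference (-0.63, SE 0.40, adjusted p = 0.266), while a fit of the 8 P6 libraries alone did (-0.63, adjusted p = 0.00578). Igf2 varied little at P6 (coefficient of variation 8.64% and 5.42%) and much in the P36 ileum (99.1%), and the shared fit uses 1 estimate of spread for all groups.

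Grb10 was higher in the ileum of all 4 mice, by 1.21, 1.61, 1.08 and 2.31 times, and was not called (-0.60, SE 0.22, adjusted p = 0.0600). Of 19 alternatives, 3 called it. Over all 19 the log2 difference ran from -0.887 to -0.352 and the adjusted p from 0.00924 to 0.2365. The largest ratio was that of mouse L42150-2, and the difference without that mouse is not given here. Plagl1 was lower in the ileum of all 4 mice, at 0.807, 0.788, 0.930 and 0.609 times its jejunal level, and was not called (0.37, SE 0.29, adjusted p = 0.374). The log2 difference of Cdkn1c was 0.11 (SE 0.20, adjusted p = 0.728), with overlapping regions.

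At P36, 3 of the 7 members differed between the regions, against 16.1% of all genes tested (8.3% with more in the jejunum, 7.8% with more in the ileum). With the log2 minimum of 2 only Igf2 passed, against 3.6% of all genes. Igf2 was higher in the jejunum of all 4 mice, with a log2 difference of 2.41 (SE 0.44, adjusted p = 0.00126) that was called in all 19 alternatives. The highest ileal value, 7.74 CPM in mouse AA3021, made the difference smaller: without that library it was 3.41 (adjusted p = 6.52e-07). Plagl1 (-1.63, SE 0.46, adjusted p = 0.0233) and Grb10 (-0.98, SE 0.31, adjusted p = 0.0408) were higher in the ileum, at levels under 2 CPM and in 3 of 4 mice each. With the mouse as a block both calls were lost, at adjusted p = 0.0776 for Plagl1 and 0.0866 for Grb10. For Plagl1 the call was also lost without P36 ileum replicates 1 or 2, or P36 jejunum replicates 1, 2 or 3, and for Grb10 without replicates 2, 3 or 4 of either region. H19 (0.24, SE 0.74, adjusted p = 0.881), Igf2r (-0.13, SE 0.16, adjusted p = 0.661), Peg3 (0.52, SE 0.42, adjusted p = 0.457) and Cdkn1c (0.11, SE 0.24, adjusted p = 0.819) were not called.

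The third comparison asked whether the difference between the regions changed with age, as an interaction (the log2 jejunum over ileum at P6 minus that at P36). It was called for 3 of the 7 members, Igf2, Peg3 and Plagl1, and for 8.69% of all genes tested (5.01% below 0 and 3.68% above). For Igf2 it was -3.04 (SE 0.59, adjusted p = 0.00383): the ileum had 1.51 to 1.64 times the jejunal level in each P6 mouse and 0.0502 to 0.471 times in each P36 mouse. For Peg3 it was -2.74 (SE 0.56, adjusted p = 0.00537), with an excess in the ileum of all 4 P6 mice and a lower level there in all 4 P36 mice, the latter difference not being called. These 2 interactions held in all 26 alternatives. For Plagl1 it was 2.00 (SE 0.54, adjusted p = 0.0313), called in 16 of 26 alternatives and not with the mouse as a block (1.94, adjusted p = 0.0906). Its call was lost without P36 ileum replicates 1 or 2, P36 jejunum replicates 1, 2 or 3, P6 ileum replicate 1, or P6 jejunum replicates 1 or 4. The interaction was -1.28 (SE 0.83, adjusted p = 0.3805) for H19, and -1.90 (SE 0.51, adjusted p = 0.0290) without mouse L42150-2. For Igf2r it was -0.34 (adjusted p = 0.383), for Grb10 0.38 (adjusted p = 0.577) and for Cdkn1c -0.0039 (adjusted p = 1.00).

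**Figure D4:**
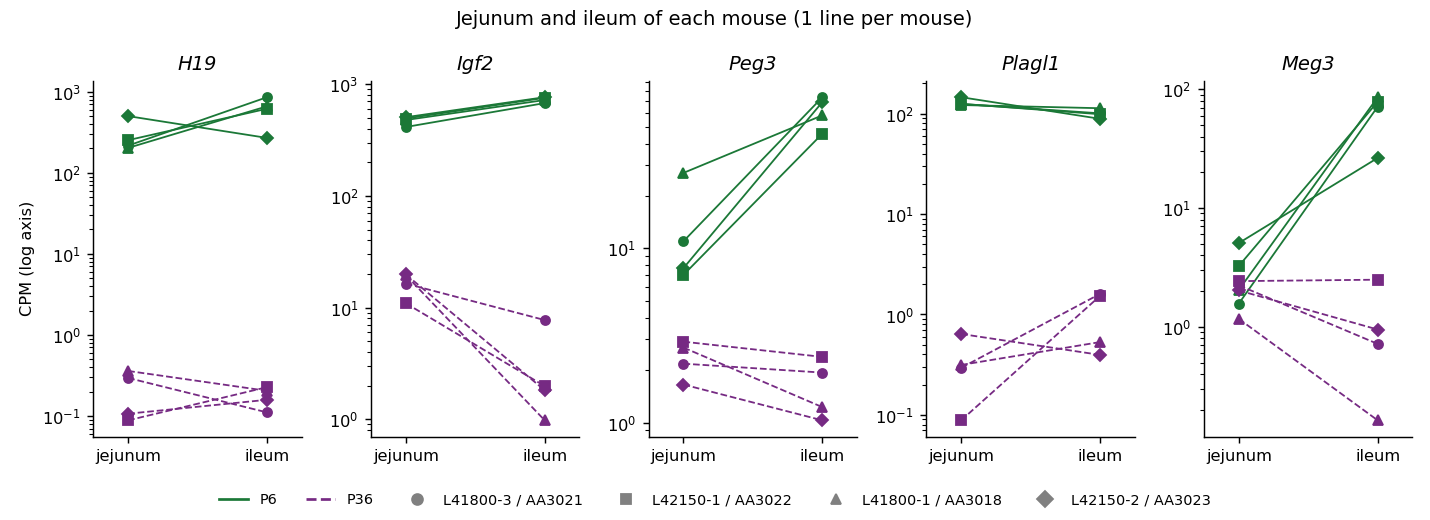
CPM on a log axis in the jejunum and ileum of each mouse, joined by 1 line per mouse (solid green, P6; broken purple, P36; a symbol stands for 1 P6 mouse and 1 P36 mouse, which are different animals). Igf2 and Peg3 rise towards the ileum in all 4 P6 mice and fall in all 4 P36 mice, H19 falls in 1 of 4 P6 mice, and Meg3 rises in all 4 P6 mice.

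Imprinted genes lie in clusters, and the genes beside the members did not all move with them. Over all genes tested, 24.7% and 25.5% rose and 26.9% and 30.1% fell in jejunum and ileum. Within 250 kb of H19 5 genes were tested, Igf2 among them, of which 3 fell in each region and 1 rose in the jejunum. Within 250 kb of Cdkn1c 8 genes were tested, of which 4 rose and 1 fell in each region. There, the non-coding RNA Kcnq1ot1, which silences genes of this cluster on the paternal chromosome, fell from 9.24 ± 1.05 and 8.70 ± 4.19 CPM to 0.112 ± 0.149 and 0.136 ± 0.115 CPM (SD, n = 4 each), with log2 fold changes of -6.18 (SE 0.65) and -6.04 (SE 0.66). It reached the filter's level in no P36 library. Among those that rose were the potassium channel gene Kcnq1, by 0.87 (SE 0.24) and 1.71 (SE 0.25), Slc22a18 by 1.35 (SE 0.35) and 1.56 (SE 0.35), and Phlda2, a growth regulator of the placenta, by 2.23 (SE 0.62) and 3.19 (SE 0.65) on the log2 scale in jejunum and ileum, while Nap1l4 was not called (-0.17, adjusted p = 0.173, and 0.19, adjusted p = 0.121). Beside Grb10, Ddc, which makes dopamine and serotonin, rose by 2.57 (SE 0.14, adjusted p = 6.90e-10) and 1.16 (SE 0.14, adjusted p = 3.76e-06), and the actin regulator Cobl by 4.12 (SE 0.32, adjusted p = 3.30e-08) and 2.66 (SE 0.30, adjusted p = 2.18e-06). Copg2, which shares 913 exon bases with Mest on the opposite strand, was at 68.7 ± 4.14, 73.0 ± 19.7, 69.1 ± 3.24 and 77.1 ± 3.904 CPM in the 4 groups (P6 jejunum, P6 ileum, P36 jejunum, P36 ileum; SD, n = 4 each) and was not called with age.

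Meg3 and Rian, maternally expressed non-coding RNAs of the Dlk1 cluster, were higher in the P6 ileum than in the P6 jejunum. Meg3 was at 1.57, 3.26, 2.05 and 5.08 CPM in the P6 jejunum and at 71.4, 78.6, 85.7 and 26.4 CPM in the P6 ileum. At P36 it lay between 1.17 and 2.43 CPM in the jejunum and between 0.163 and 2.495 CPM in the ileum. Thus it was higher in the ileum of all 4 P6 mice (log2 jejunum over ileum -4.45, SE 0.57, adjusted p = 3.36e-05) and fell in the ileum (-5.95, SE 0.63, adjusted p = 9.37e-07), while its jejunal difference was -0.61 (SE 0.54, adjusted p = 0.374). The interaction was -5.34 (SE 0.80, adjusted p = 0.000573). Rian gave near-equal values, with -4.45 (SE 0.51) between the regions at P6 and -5.30 (SE 0.74, adjusted p = 0.000306) for the interaction. In the P6 ileal library of L42150-1 Meg3 lay between those of L41800-3 and L41800-1, whereas Rian was highest there (56.8 CPM against 29.5 to 38.2 CPM in the other 3). Without that library both kept their calls at P6 and in the ileum with age. Dio3, which inactivates thyroid hormone and lies at the far end of the cluster, had 264 and 296 reads at P6 and 0 in all P36 libraries, at least 83.3-fold and 87.3-fold lower (against 3 reads over a group).

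**Figure D5:**
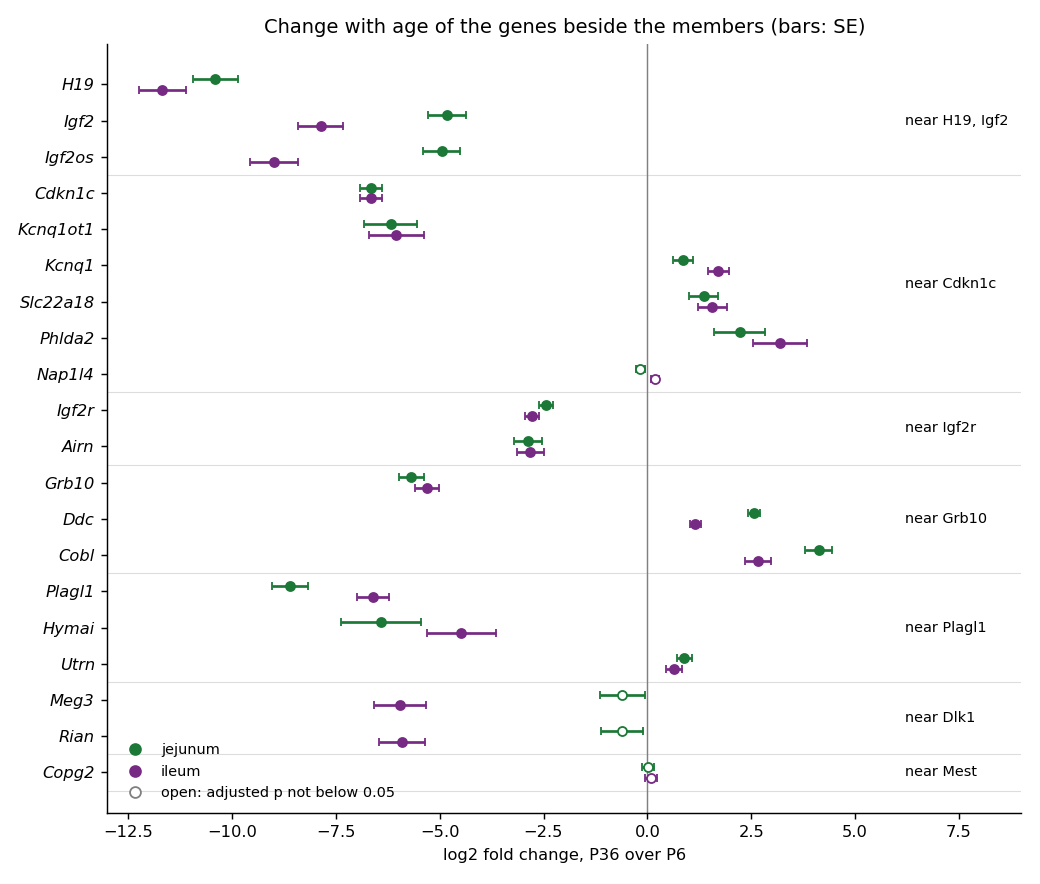
Log2 fold change from P6 to P36 (points, with SE as bars; filled where the adjusted p was below 0.05) in the jejunum (green) and ileum (purple) for members and genes within 250 kb of them. Kcnq1ot1, Airn, Igf2os and Hymai lie below 0 with their members, Kcnq1, Slc22a18, Phlda2, Ddc and Cobl lie above 0, and Meg3 and Rian are called in the ileum but not in the jejunum. H19, Kcnq1ot1 and Hymai reached the filter's level in no P36 library and so had to differ between the ages.

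Of 61 other imprinted genes listed, 39 were tested. In the jejunum 11 fell, 10 rose and 18 were not called (51.6% of all tested genes were called in either direction). In the ileum 15 fell, 11 rose and 13 were not called (55.7% of all genes). Without the ileal library of L42150-1, 16 fell and 10 rose there. With all libraries, the median log2 fold change of the 39 genes was -0.17 in the jejunum and -0.12 in the ileum. By smallest adjusted p, the genes with the clearest change included Ddc and Cobl, Dhcr7, the last enzyme of cholesterol synthesis, which rose in the jejunum (1.71, SE 0.15), and Gatm, which makes the precursor of creatine and fell in both regions (-6.93, SE 0.71, and -6.63, SE 0.68). Peg10, a gene derived from a retrotransposon, was low at P6 (0.393 ± 0.197 and 0.934 ± 0.917 CPM, SD, n = 4 each) and fell to 2 and 3 reads per group (-3.65, SE 1.11, and -4.28, SE 1.01). In the P6 mice 12 of the 39 tested were called higher in the ileum and 6 in the jejunum, against 14.8% and 11.1% of all genes tested. Without the ileal library of L42150-1 these counts were 10 and 5. Tfpi2, a protease inhibitor, was higher in the ileum at both ages (-2.54, SE 0.23, and -2.23, SE 0.24), and Dhcr7 at P6 (-1.99, SE 0.15).

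Among genes of the IGF pathway, 15 of 21 were tested. In the jejunum 5 fell and 2 rose (51.6% of all genes tested were called), and in the ileum 8 fell and 1 rose (55.7%). Without the ileal library of L42150-1, 5 rather than 8 fell in the ileum, as Irs1, Igfbp5 and Igfbp7 were no longer called. Ghr, the growth hormone receptor, fell from 245 ± 8.02 and 341 ± 112 CPM to 5.35 ± 0.819 and 7.19 ± 1.77 CPM (SD, n = 4 each; log2 -5.51, SE 0.25, and -5.56, SE 0.25). Igfals, which stabilises circulating IGF complexes, fell by -8.50 (SE 0.80) and -6.43 (SE 0.74), to 7 and 13 reads per P36 group. The binding protein Igfbp6 rose in the jejunum (3.68, SE 0.69), Igfbp3 fell in the ileum (-5.71, SE 1.16, and -4.11, SE 0.94, adjusted p = 0.00191, without the library of L42150-1) and the insulin-degrading enzyme Ide fell in the jejunum (-0.82, SE 0.19).

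The receptors through which Igf2 signals are Igf1r and a form of Insr. Igf1r was at 12.9 ± 1.18 and 22.9 ± 1.67 CPM at P6 and 12.0 ± 1.67 and 20.1 ± 2.47 CPM at P36 (jejunum and ileum, SD, n = 4 each), with age differences of -0.11 (SE 0.14, adjusted p = 0.554) and -0.18 (SE 0.14, adjusted p = 0.272). It was higher in the ileum at both ages, by -0.82 (SE 0.14, adjusted p = 0.000419) at P6 and -0.75 (SE 0.14, adjusted p = 0.00160) at P36 for jejunum over ileum. Insr, the insulin receptor, fell in the ileum (-1.24, SE 0.19, adjusted p = 5.87e-05), and in the jejunum its difference was -0.24 (SE 0.19, adjusted p = 0.324). The interaction for Insr was -1.001 (SE 0.27, adjusted p = 0.0314). Igfbp5 was higher in the P6 ileum than the P6 jejunum (-2.40, SE 0.66).

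Of 14 genes with known roles in fetal growth, 11 were tested, and 9 fell and none rose in each region, against 26.9% and 30.1% of all genes that fell. Trim71 and Igf2bp1, like Igfals, Peg10, Dio3 and Ctcfl of the other lists, reached the filter's level in no P36 library and so had to differ between the ages. The proteins of the Igf2bp family bind Igf2 mRNA. Igf2bp1 fell from 6.37 ± 2.29 and 15.4 ± 2.97 CPM to 3 and 8 reads per group (-7.19, SE 0.68, and -7.09, SE 0.61). Igf2bp3 fell from 140 ± 6.69 and 160 ± 35.0 CPM to 2.75 ± 1.09 and 1.45 ± 0.479 CPM (-5.67, SE 0.29, and -6.76, SE 0.31). Igf2bp2 fell by less, -0.68 (SE 0.11) and -1.12 (SE 0.11), and stayed at 50.3 ± 3.56 and 61.5 ± 2.59 CPM at P36 (SD, n = 4 in each group). Plagl2 and Plag1 are relatives of Plagl1. Plagl2 fell from 751 ± 60.5 and 669 ± 51.4 CPM to 76.9 ± 10.2 and 84.1 ± 5.45 CPM (-3.29, SE 0.14, and -2.99, SE 0.13), while Plag1 fell in the ileum (-1.23, SE 0.25, adjusted p = 0.000576) and had a jejunal difference of -0.39 (SE 0.25, adjusted p = 0.203). The transcription factors Arid3a (-5.56, SE 0.24, and -4.85, SE 0.23) and Mycn (-4.00, SE 0.23, and -3.28, SE 0.22) fell in both regions. In the P6 comparison of regions, Igf2bp2 (-0.72, SE 0.11) and the chromatin protein Hmga2 (-1.06, SE 0.26) were among 4 genes higher in the ileum. Another 1 was higher in the jejunum, against 14.8% and 11.1% of all genes tested for ileum and jejunum. Without the ileal library of L42150-1, 3 were higher in the ileum, as Igf2bp1 was no longer called (adjusted p = 0.0599). At P36 Igf2bp3 was higher in the jejunum (0.89, SE 0.28, adjusted p = 0.0426).

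Of 15 genes that set or keep DNA methylation and imprints, 12 were tested, and 3 fell in the jejunum, while 5 fell and 2 rose in the ileum (51.6% and 55.7% of all genes were called). Dnmt3a, a de novo methyltransferase, fell by -1.40 (SE 0.15) and -1.32 (SE 0.15), and Dnmt3b in the jejunum by -1.70 (SE 0.24). In the ileum Tet2, which oxidises methylated cytosine, fell (-1.25, SE 0.24) and Uhrf1, which guides maintenance methylation, rose (1.34, SE 0.26). Ctcfl, a testis relative of the insulator protein CTCF, fell from 6.87 ± 0.793 and 0.525 ± 0.0858 CPM (SD, n = 4 each) to 3 and 1 reads per group (-7.32, SE 0.52, and -4.75, SE 0.66), and was higher in the P6 jejunum than ileum (3.70, SE 0.38, adjusted p = 4.18e-06). Tet1 was higher in the P6 ileum (-1.30, SE 0.37) and Dnmt1 in the P36 ileum (-0.70, SE 0.21).

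Of 11 Notch ligands, receptors and targets, listed because Dlk1 is related to the ligands, 9 were tested, and in each region 3 rose and 3 fell, against 51.6% and 55.7% of all genes called in either direction. Without the ileal library of L42150-1, 2 rather than 3 fell in the ileum, as Dll1 was no longer called (adjusted p = 0.108). The ligand Dll4 rose (3.01, SE 0.36, and 2.21, SE 0.34), as did Jag1 (0.97, SE 0.21, and 1.04, SE 0.21) and the receptor Notch4 (1.79, SE 0.40, and 2.03, SE 0.39). Jag2 fell (-3.66, SE 0.64, and -2.90, SE 0.60). Dll1 was higher in the jejunum at P6 (1.01, SE 0.19) and P36 (0.84, SE 0.19), and Notch2 in the ileum (-0.79, SE 0.18, and -0.73, SE 0.18).

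Pearson's correlation of log2 CPM over the 16 libraries ranged from 0.844 (Peg3 with Plagl1) to 0.989 (H19 with Cdkn1c) over the 21 pairs of tested members. The 16 points fall into an old and a young set from the same 8 mice, which sets most of each value, so the correlations only describe likeness. The 3 genes most like H19 over the 16 libraries were Dio3os (0.997), Ctsa (0.994) and Aph1c (0.994), and those most like Igf2 were its antisense RNA Igf2os (0.993), Tmem144 (0.993) and Afm (0.992). Igf2r was most like Ubn1 (0.997), Dmxl2 (0.995) and Gm438 (0.992). Plagl1 was most like Folr1 (0.990), Renbp (0.990) and Hif3a (0.988), and Grb10 like Ghr (0.993), Hif3a (0.991) and Aph1c (0.990). Cdkn1c was most like Fnip2 (0.997), Thsd4 (0.997) and 5830473C10Rik (0.996). Peg3 was most like Cpeb1 (0.982), Jazf1 (0.973) and Slc2a12 (0.973). Of the genes named here as most like a member, Thsd4 and 5830473C10Rik had their highest mean in the P6 jejunum. All others had it in the P6 ileum, also those most like Plagl1, so this was not particular to Peg3.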

How the data were processed

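Stranded mRNA libraries (Kapa) from 16 samples had been sequenced on a NovaSeq instrument. Per the labels and the study's methods, the authors trimmed reads (Trimmomatic 0.38), aligned them to mm10 (STAR, given as 2.5.3 in the submitters' processing notes) and summed strand-specific fragments over exons per gene with featureCounts of Subread 1.6.3. The deposited values are raw counts, not normalized, 1 file per library, for 24421 genes, of which 18959 had a count.

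Genes passing edgeR's filterByExpr on the 4 groups (13429) got TMM factors and entered edgeR's quasi-likelihood test (edgeR 4.0.16, R 4.3.3) in 1 fit of all 16 libraries with 4 group means, without a block. Adjusted p-values (Benjamini-Hochberg) cover all genes tested, and called, rose or fell means an adjusted p below 0.05. The authors' own threshold also asks for an absolute log2 fold change above 2. SE is the log2 fold change divided by the square root of F. CPM use TMM-scaled totals, log2 CPM a prior count of 2, and CPM per kb the exon length in the files. Fold changes of genes with few counts depend on the prior count.

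The jejunum and ileum of a P6 or P36 mouse come from the same animal, by the mouse number in the titles. Their deviations from the group means correlated over genes, with r from 0.157 to 0.391 at P6 and from 0.240 to 0.347 at P36 (4 pairs each). Between different mice r ran from -0.284 to 0.120 at P6 (mean -0.106) and from -0.367 to 0.232 at P36 (mean -0.101). Replicate numbers within a group follow accession order. No 2 replicates were copies (chi-square per gene 13.2 to 272 over 24 pairs).

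Alternatives were DESeq2 1.42.0, median-of-ratios factors, library totals, no filter, a mean CPM of at least 1, sex as covariate, fits of the compared groups only, the mouse as a block (limma 3.58.1 duplicateCorrelation for ages) and each library left out. Leaving out both libraries of mouse L42150-1 or L42150-2, and no filter without the L42150-1 ileum, were chosen after seeing the data. In simulated counts with 200 of 13429 genes changed by 3 on the log2 scale, the test recovered 194 for age in the jejunum, 185 for age in the ileum, 187 and 192 for region at P6 and P36, and 162 for the interaction. At a change of 1 it recovered 70, 85, 90, 92 and 0.

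The 9 members and all lists were chosen with earlier results of these data known. All members are named. From each other list, the called genes with the smallest adjusted p are named, up to 4 per age and 2 per region comparison, with 10 genes always named, together with overlapping genes and the 3 genes most like each member. Kcnq1, Slc22a18, Phlda2, Nap1l4, Dio3 and Airn are named as neighbours of members, and Trim71, Irs1 and Igfbp7 for their lists, after their values were seen. Raw reads were not analysed here.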

Additional observations from a re-analysis of the deposited data

Results flagged for a closer look

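In 36 combinations of a gene and a group of 4 libraries, 1 library stood apart from the other 3 in 6 of them (Dixon's ratio above 0.829 for 4 values); chance gives about 1 in 20. In the P6 jejunum, H19 at 501 CPM and Plagl1 at 146 CPM were high in mouse L42150-2. The ileal library of that mouse was instead the lowest of the P6 ileum for H19 (270 CPM) and Plagl1 (88.7 CPM).

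Mest stood apart in both P6 libraries of mouse L42150-1, with 0.803 CPM for the jejunal and 8.27 CPM for the ileal library, of which the ileal one had a smooth muscle sum of 225 CPM and the jejunal one a sum no higher than 1.66 CPM. In the P36 jejunum Mest was at 0.0898 CPM in mouse AA3018, which is 2 reads against 0 in the other 3. Igf2 in the P36 ileum was at 7.74 CPM in mouse AA3021, against at most 1.98 CPM in the others.

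The difference between the regions changed with age for Igf2 (interaction -3.04), Peg3 (-2.74) and Plagl1 (2.00), each with an adjusted p below 0.05 in edgeR's test of the interaction itself.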

How the results depend on the processing

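The counts of members changed with age (7 in either region) and with an interaction (3) stayed within 1.5 times under all alternatives. Of 3 members differing between regions at P6, 1 was left with the log2 minimum of 2, without both libraries of mouse L42150-1, and with no filter and its ileal library left out, and 5 were called by DESeq2, which tested all 9 (H19, Igf2r, Peg3, Grb10 and Dlk1); leaving out 1 library gave 1 to 3, with 1 without P6 ileum replicate 2 or P6 jejunum replicates 1 or 2. Of 3 at P36, 1 was left with the log2 minimum, with only the compared libraries and with the replicate block, and leaving out 1 library gave 1 to 2, with 1 without P36 ileum replicate 2 or P36 jejunum replicates 2 or 3. With the mouse as a block no call changed other than those of H19 at P6, Plagl1 and Grb10 at P36 and the Plagl1 interaction. Signs turned only for differences that were not called. For Cdkn1c, library totals gave -0.18 at P6 and -0.0155 at P36. Its interaction was 0.00368 by DESeq2, 0.00732 by median-of-ratios factors, 0.0280 without a filter and 0.143 when the ileal library of L42150-1 was also left out. Leaving out 1 library gave -0.126 to 0.194 for that interaction, and at P36 -0.0800 to 0.240 for Cdkn1c, -0.157 to 0.516 for H19 and -0.232 to 0.0250 for Igf2r. Library totals shifted the median of all genes by -0.29 at P6, -0.14 at P36 and -0.15 for the interaction (log2). The cause of these changes was not tested. At P36 depth limits H19, Dlk1 and Mest, with 17 reads or fewer per group.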
